A study of Mus musculus with 2 samples.

Results

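The Ms4a genes encode small proteins that cross the cell membrane several times. They lie side by side on mouse chromosome 19, and their products sit with immune receptors at the cell surface. The founding members are known from lymphoid and mast cells, namely Ms4a1, which encodes CD20 of B cells, and Ms4a2, the beta chain of the high-affinity IgE receptor. Other members, among them Ms4a4a, Ms4a6d and Ms4a7, are known from monocytes and macrophages. Described here are 8 genes, Ms4a4a, Ms4a4b, Ms4a4c, Ms4a6b, Ms4a6c, Ms4a6d, Ms4a7 and Ms4a8a, of 55536 gene entries in the tables. They were taken by symbol, and all 8 were found in both libraries.

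Polyadenylated RNA was sequenced from primary macrophages grown from bone marrow of the C57BL/6J mouse strain, in 1 group of 2 biological replicates. The cells received Lipid A, the Tlr4-binding part of bacterial lipopolysaccharide, at 100 ng/mL for 12 h, spent 12 h without it, and received 100 ng/mL again for 30 min; the treatment label calls the agent lipoprotein A instead. No other condition was analysed here, so levels describe the restimulated state and no gene was tested between conditions. The labels name a shared donor record and separate biosamples, and do not say whether separate animals were used, so the spread between the replicates may be technical.

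The gene counts of replicate 1 summed to 41938419 and those of replicate 2 to 30780681. A gene with 0 counts could still have up to 3, which is 0.0715 and 0.0975 CPM. Intervals and floors cover counting error only, since reads without molecular identifiers are not independent molecules. All 8 macrophage markers were at 1 TPM (a level scaled to transcript length and to depth) or more in both libraries. Among markers of other cells, 5 of 7 mast cell genes had 0 counts in both libraries, including Ms4a2 and the IgE receptor chain Fcer1a, and the list reached 0.15 and 0.37 TPM in sum. Of 7 T cell markers, 2 were at 1 TPM or more in both libraries, Cd4 at 58.2 and 37.7 TPM and Cd28 at 51.5 and 40.4 TPM. Cd3e, Cd3d and Cd3g, which encode Cd3 chains of the T cell receptor complex, stayed at 0.09 TPM or lower. Of 6 B cell markers, 2 were at that level, Cd22 at 95.2 and 56.9 TPM and Cd79b at 7.78 and 3.96 TPM. Of 5 dendritic cell markers, 1 was at that level, Ccr7 at 2.61 and 2.41 TPM, and of 5 NK cell markers 0 were. Of 8 neutrophil and granulocyte precursor genes, 2 were at that level, S100a8 at 22.25 and 3.66 TPM and S100a9 at 40.05 and 5.28 TPM. All 8 summed to 74.6 TPM in replicate 1 and 9.67 TPM in replicate 2.

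The members differ in how close they are by sequence. Over coding bases the closest pair was Ms4a4b and Ms4a4c, identical at 91.7% of 678 aligned positions, followed by Ms4a6b and Ms4a6d at 80.2% and Ms4a6b and Ms4a6c at 75.6%. Ms4a6c and Ms4a6d followed at 68.4%, and all other pairs were at 60.5% or lower. Ms4a8a was the most distant, between 45.3% and 50.3% against each of the others. The coding sequence of the transcript compared was shortest in Ms4a6c, with 217 codons, and longest in Ms4a8a, with 290.

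Promoter windows from RefSeq (GRCm38.p6), each 250 bases before and 50 after a start site, were found for 7 of the 8 members, all but Ms4a6d. Only the first window of each gene was compared, so the second window of Ms4a7 was left out. Of the 21 pairs of first windows, 2 shared a long stretch, and every other pair aligned over 26 positions or fewer. The stretches are shown because they are the long matches found in these windows. They lie between Ms4a4b and Ms4a4c, which differ widely in level, and between Ms4a6b and Ms4a6c, which differ less. They run 5′ to 3′ on the plus strand, and capitals mark bases that differ from the partner or have no counterpart in it. For Ms4a4b (chr19:11443427-11443603) and Ms4a4c (chr19:11407533-11407710), 89.3% of 178 aligned positions were identical.
Ms4a4b: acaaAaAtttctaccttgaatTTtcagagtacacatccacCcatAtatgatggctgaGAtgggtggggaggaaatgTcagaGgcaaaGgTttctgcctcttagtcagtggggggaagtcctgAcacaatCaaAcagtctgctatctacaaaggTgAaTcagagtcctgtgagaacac
Ms4a4c: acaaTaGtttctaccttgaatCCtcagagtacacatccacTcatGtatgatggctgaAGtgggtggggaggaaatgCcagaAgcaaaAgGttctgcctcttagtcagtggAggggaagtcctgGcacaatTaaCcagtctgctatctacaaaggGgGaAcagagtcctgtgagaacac
For Ms4a6b (chr19:11518311-11518535) and Ms4a6c (chr19:11469193-11469417), 82.5% of 234 aligned positions were identical.
Ms4a6b: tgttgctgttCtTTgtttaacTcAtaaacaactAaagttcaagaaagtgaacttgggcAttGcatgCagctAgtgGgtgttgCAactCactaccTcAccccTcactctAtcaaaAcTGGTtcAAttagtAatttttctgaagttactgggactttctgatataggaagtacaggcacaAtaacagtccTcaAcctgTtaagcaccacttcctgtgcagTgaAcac
Ms4a6c: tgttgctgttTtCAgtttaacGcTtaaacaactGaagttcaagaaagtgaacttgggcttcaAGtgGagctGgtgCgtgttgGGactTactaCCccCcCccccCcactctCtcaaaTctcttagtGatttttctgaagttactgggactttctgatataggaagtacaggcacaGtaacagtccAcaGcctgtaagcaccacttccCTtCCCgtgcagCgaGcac
The Ms4a4b and Ms4a4c stretches cover positions -131 to 46 and -128 to 50 from the RefSeq start site, and the Ms4a6b and Ms4a6c stretches cover -248 to -24 and -175 to 50.

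Motif searches of the windows on both strands gave few matches. The letters TGANTCA (AP-1) were found at -244 to -238 in Ms4a8a, at 23 to 29 in Ms4a4b and at -81 to -75 in the second window of Ms4a7, whose start site holds 0.247% and 0.405% of the gene's counts. They are in 7.81% of all 32851 RefSeq windows. In Ms4a4b this match holds 3 of the bases that differ from Ms4a4c. The TATA box, with the letters TATAAA, was found only in Ms4a4b, at -140 to -135, against 13.6% of all windows. The letters GAGGAAG (PU.1), GAAANNGAAA (interferon-stimulated response element) and TTGCNNAA (C/EBP) were in none of the members' windows, and in 13.6%, 3.44% and 10.8% of all windows. Only these exact letters were searched. A match is a description of letters and not evidence of binding, and the lack of a match is not evidence against binding.

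Most members were abundant. At 1 TPM or more in both libraries stood 7 of the 8 members, against 48.7% of 22028 protein-coding genes, and 6 of 8 reached 100 TPM in both, against 5.56%. The members were picked as Ms4a genes of myeloid cells, with earlier results of these data known. The comparison is therefore a description and not a test. The 8 genes together held 6655 TPM in replicate 1 and 6556 TPM in replicate 2, or 0.378% and 0.400% of counts. Levels spanned the range from Ms4a4c, at 2483 ± 94.3 TPM (SD, n = 2), to Ms4a8a, at 0.28 ± 0.27 TPM.

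**Figure D1:**
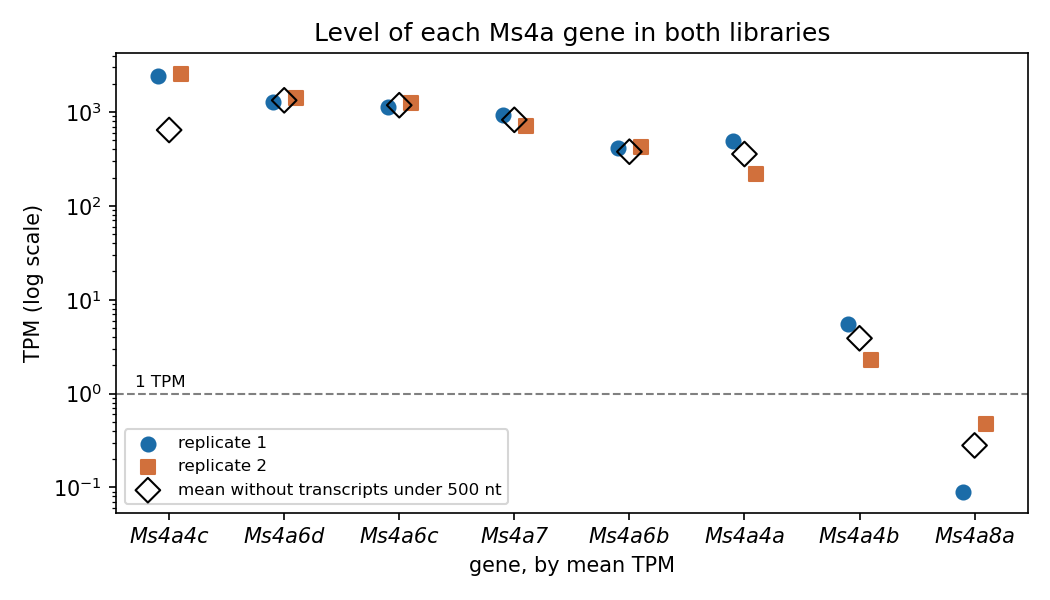
TPM on a log axis for the 8 genes in replicate 1 (circles) and replicate 2 (squares), with diamonds for the mean when transcripts under 500 nt are left out. There are 6 genes above 100 TPM in both libraries, with Ms4a4b and Ms4a8a far below, and leaving out short transcripts moves Ms4a4c from 2483 to 643 TPM.

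Ms4a4c (ENSMUSG00000024675.19, chromosome 19, 11404770 to 11427246, mm10, plus strand) stood at 2416 TPM in replicate 1 and 2550 TPM in replicate 2. It ranked 37th and 30th among protein-coding genes. Both libraries were high and close to each other. This level rests on a short transcript: Ms4a4c-203, of 361 nt, held 19.6% and 15.2% of the gene's counts but 76.1% and 72.2% of its TPM. Its effective length, over which the authors' tool divides the counts, was 109.74 and 96.31 nt, against 1452.53 and 1434.43 nt for the full-length transcript Ms4a4c-201. Ms4a4c-201 carried 80.0% and 83.8% of the counts and stood at 567 and 681 TPM. Ms4a4c-203 is annotated as coding, with 226 coding bases against 678 in Ms4a4c-201. Coding transcripts alone therefore left Ms4a4c at 2416 and 2550 TPM. With transcripts under 500 nt left out, Ms4a4c was at 643 ± 92.55 TPM, behind Ms4a6d, Ms4a6c and Ms4a7. The FASTQ-derived table gave 1678 and 1575 TPM for the gene, of which Ms4a4c-203 made up 69.8% and 63.6%. Ms4a4c-203 starts 2891 bases upstream of Ms4a4c-201, so the printed promoter stretch of Ms4a4c belongs to Ms4a4c-201.

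Ms4a6d (ENSMUSG00000024679.10, chromosome 19, 11586604 to 11604849, minus strand), whose product is described as a partner of the complement receptor Vsig4 in macrophages, stood at 1273 and 1404 TPM. It held the most counts of the family, 40787 and 33725. Nearly all of them, 99.9% in each library, lay on the coding transcript Ms4a6d-201, so its level did not turn on the choice of transcript.

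Ms4a6c (ENSMUSG00000079419.4, chromosome 19, 11469366 to 11482192, plus strand) stood at 1118 and 1246 TPM, and Ms4a6d was higher in each library. The coding transcript Ms4a6c-201 carried 91.6% and 92.3% of counts, while the retained-intron transcript Ms4a6c-202 made up 27.9% and 26.9% of TPM. Coding transcripts alone gave 806 and 911 TPM. The gene BE692007, on the other strand, covers 1088 of the 2050 exon bases of Ms4a6c. Accordingly 58.1% of the 31-base words of Ms4a6c occur in transcripts of other genes, 1031 of 2020 of them in BE692007, on either strand. BE692007 was at 22.4 and 22.7 TPM on 2507 and 1938 counts, against 38688 and 32710 counts for Ms4a6c. No source used here says whether reads were counted by strand, so reads of the 2 genes may not have been told apart. The level of Ms4a6c is uncertain to that extent, which was not tested. The posterior SD that the authors' tool gave for the counts of Ms4a6c was 24.0 and 20.9 reads, as for BE692007. For every other member it was 0.25 reads or less.

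Ms4a7 (ENSMUSG00000024672.11, chromosome 19, 11321039 to 11336146, minus strand), a gene used as a marker of mature macrophages, stood at 935 and 717 TPM. Replicate 1 was the higher library, unlike for the 3 genes above it. A coding transcript of 1334 nt held 64.6% and 63.0% of its TPM and another of 882 nt held 33.7% and 34.9%. The division between these transcripts was nearly the same in both libraries, although the level differed.

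Ms4a6b (ENSMUSG00000024677.13, chromosome 19, 11516512 to 11531256, plus strand) stood at 411 and 420 TPM. Counts came from a pair of coding transcripts with the same coding length of 732 bases and different starts. Ms4a6b-201 held 52.3% and 49.8% of counts, and Ms4a6b-205, which starts 2047 bases upstream, held 42.0% and 45.8%. Non-coding transcripts made up 15.6% of TPM in replicate 1 and 5.91% in replicate 2, mostly the 429-nt retained-intron transcript Ms4a6b-202, at 57.6 and 17.7 TPM.

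Ms4a4a (ENSMUSG00000101389.1, chromosome 19, 11375523 to 11392790, plus strand) encodes a macrophage surface protein that associates with the beta-glucan receptor dectin-1. It stood at 496 TPM in replicate 1 and 218 TPM in replicate 2, the widest gap among the 6 abundant members. It has a single annotated transcript, of 836 nt, and none of its 31-base words occurs in another gene. The FASTQ-derived table gave 473 and 201 TPM.

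Ms4a4b (ENSMUSG00000056290.16, chromosome 19, 11443553 to 11467055, plus strand), known from T cells, where its product associates with the receptor Gitr, stood at 5.45 and 2.30 TPM on 135 and 76 counts. Non-coding transcripts, all of those with counts annotated as retained introns, took 90.1% and 73.6% of this TPM. Its only coding transcript, Ms4a4b-201, was at 0.54 and 0.61 TPM, under 1 TPM in both libraries. The FASTQ-derived table gave more, 7.47 and 4.98 TPM, with 1.04 and 1.14 TPM for Ms4a4b-201. The full-length coding transcripts of the closest pair therefore differed 1050-fold in replicate 1 and 1117-fold in replicate 2 (Ms4a4c-201 over Ms4a4b-201), and 480.4-fold and 495.5-fold in the FASTQ-derived table. By comparison Ms4a6c-201 was 3.42-fold and 3.54-fold above Ms4a6b-201, its partner in the printed promoter stretches. Of the 31-base words of Ms4a4b, 227 of 8802 also occur in Ms4a4c, so its few counts could include reads of that gene, which was not tested. The posterior SD of the Ms4a4b counts was 0.25 and 0.11 reads. The FASTQ-derived table gave Ms4a4b 330 and 231 counts.

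Ms4a8a (ENSMUSG00000024730.7, chromosome 19, 11067471 to 11081102, minus strand), described in alternatively activated and tumour-associated macrophages, was near the floor, at 0.09 and 0.47 TPM on 2 and 8 counts. It was the only member under 1 TPM.

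In the order of mean levels, neighbours did not overlap between libraries except for Ms4a6b and Ms4a4a, whose ranges of 411 to 420 and 218 to 496 TPM overlapped. The gap between Ms4a6d and Ms4a6c was narrow, with 1273 TPM as the lowest value of the former and 1246 TPM as the highest of the latter. The widest steps were from Ms4a4a to Ms4a4b, 92.1-fold between means, and from Ms4a4b to Ms4a8a, 13.8-fold. This order is on gene TPM over all transcripts and depends on that choice. On coding transcripts alone Ms4a6c, at 806 and 911 TPM, overlapped with Ms4a7, at 928 and 710 TPM. Without transcripts under 500 nt Ms4a4c came after Ms4a7.

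**Figure D2:**
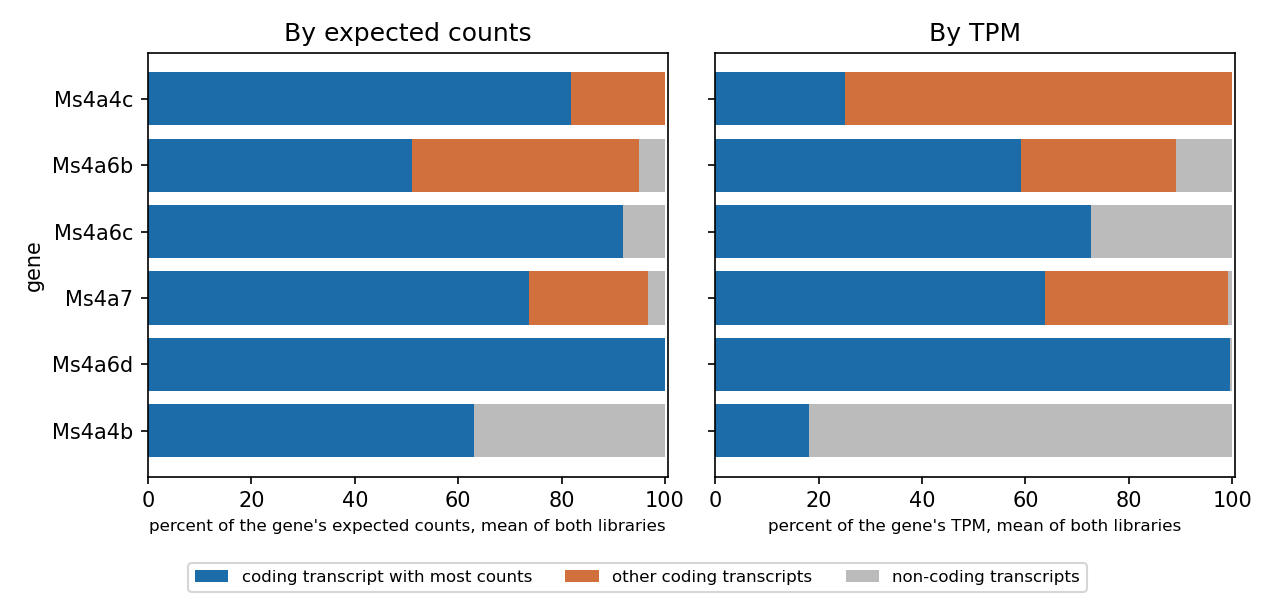
Share of each gene's expected counts (left) and TPM (right), as percent and mean of both libraries, in the coding transcript with most counts (blue), other coding transcripts (orange) and non-coding transcripts (grey). For Ms4a4c the blue share falls from 81.9% of counts to 25.1% of TPM, and for Ms4a4b from 63.0% to 18.2%.

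The abundant members are neighbours on the chromosome. The 19 Ms4a genes of the annotation span 679 kb, from 10962293 to 11640851 on chromosome 19 (mm10). All 6 members above 100 TPM lie within 284 kb of it, between 11321039 and 11604849, and Ms4a4b lies among them. Ms4a4d, at 0.14 and 0.08 TPM, also lies in this interval, between Ms4a6b and Ms4a6d. Ms4a8a lies outside it, toward the start of the cluster.

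**Figure D3:**
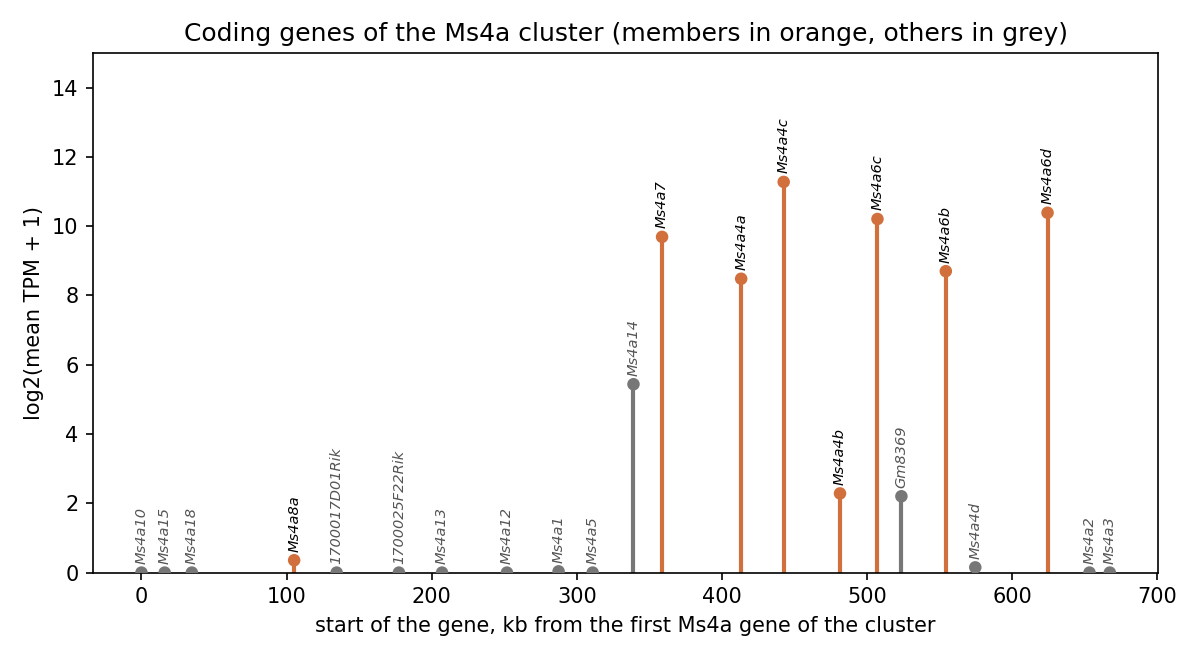
Log2 of the mean TPM plus 1 for protein-coding genes of the cluster, against the start of each gene in kb from the first Ms4a gene. Members (orange) above 100 TPM lie between Ms4a7 and Ms4a6d, with the low Ms4a4b and Ms4a4d between them, and Ms4a8a lies apart at the left.

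Of the 11 other Ms4a genes, 1 reached 1 TPM in both libraries. This was Ms4a14, next to Ms4a7, at 45.5 and 39.2 TPM. Ms4a1 had 4 and 0 counts, and 8 genes, among them Ms4a2 and Ms4a3, a gene of granulocyte and monocyte progenitors, had 0 counts in both libraries. In the FASTQ-derived table Ms4a12 had the most estimated counts of these 8, 5 and 4, at 0.0933 and 0.0952 TPM. Ms4a5, with 2 and 1 estimated counts, was at 0.135 and 0.0541 TPM there. Tmem176a and Tmem176b, distant relatives of the family on chromosome 6, stood at 93.02 and 79.9 TPM and at 115 and 134 TPM.

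Genes whose products are described as partners of Ms4a proteins were unevenly expressed. Clec7a, which encodes dectin-1, stood at 111 and 81.1 TPM, and Trem2, a lipid-binding receptor of macrophages, at 319 and 327 TPM. Fcer1g, the signalling chain shared by Fc receptors, stood at 4252 and 3063 TPM. By contrast Vsig4, partner of Ms4a6d, had 3 and 0 counts, Tnfrsf18, which encodes Gitr, had 2 and 0, and Kit, the receptor of stem cell factor, stood at 0.06 and 0.33 TPM. Fcer1a had 0 counts. Of the 7 listed partner genes, 3 were at 1 TPM or more in both libraries, a share near the 48.7% of protein-coding genes.

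Between the libraries the members moved in both directions. Ratios are replicate 2 over replicate 1 on scaled counts, with an exact 95% interval, and with 1 library on each side they have no replicate check and no test. Ms4a4a had a log2 ratio of -1.17 (-1.24 to -1.11), a 2.25-fold higher level in replicate 1. Among the 7 members with 20 or more counts in each library, 1 was at least 2-fold lower in replicate 2, against 0.521% of 12471 genes. At least 2-fold higher were 0 of 7, against 1.94%. Ms4a7 was lower too, at -0.36 (-0.39 to -0.32). Ms4a4b was at -0.37, with an interval of -0.80 to 0.04 that includes 0; on deposited TPM its log2 ratio was -1.09. Ms4a4c, Ms4a6b, Ms4a6c and Ms4a6d lay close together on the other side, between 0.18 (0.16 to 0.20) for Ms4a6d and 0.24 (0.22 to 0.27) for Ms4a4c. On deposited TPM the same 4 genes were nearer to 0, Ms4a6b at 0.03, Ms4a4c at 0.08, Ms4a6d at 0.14 and Ms4a6c at 0.16. Ms4a8a, with 2 and 8 counts, was at 2.16 (0.13 to 5.73).

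**Figure D4:**
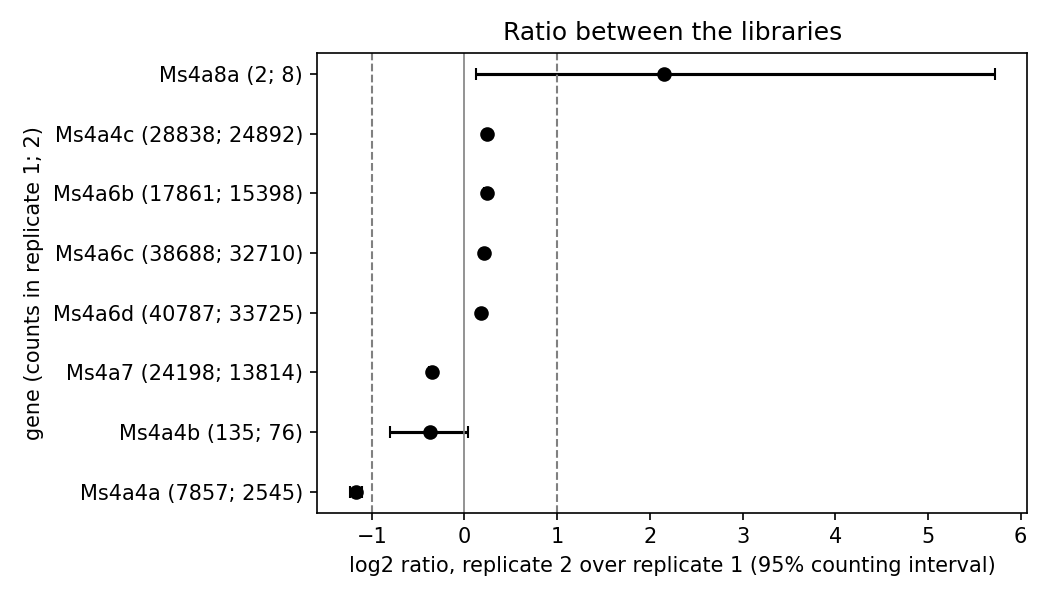
Log2 ratio of replicate 2 over replicate 1 for each gene, with its exact 95% counting interval, dashed lines at a 2-fold difference and the counts of both libraries beside each name. Ms4a4a lies beyond the 2-fold line at -1.17, the Ms4a6 genes and Ms4a4c lie between 0.18 and 0.24, and the wide interval of Ms4a8a rests on 2 and 8 counts.

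On scaled counts, the median over the 7 members with a mean of at least 20 counts was 0.18, against -0.03 over 12804 genes so counted. Of the 6 abundant members, Ms4a7 and Ms4a4a, adjacent coding genes on opposite strands, were below 0 on scaled counts and on deposited TPM, at -0.38 and -1.19 on the latter. Clec7a and Fcer1g were also lower in replicate 2, at -0.44 and -0.48, and Trem2 was at 0.12. Of the 8 macrophage markers 7 were below 0, against 53.6% of all genes with 20 or more counts in each library. These 7 ran from -0.61 for Itgam and -0.49 for Mertk to -0.09 for Adgre1, and Lyz2 was at 0.50. Moving beside these ratios were also the neutrophil markers named above, the B cell markers, with 103 and 60.9 TPM in sum, the T cell markers, with 110 and 78.8 TPM, and the ribosomal RNA gene CT010467.1, with 1.37% of counts in replicate 1 and 4.25% in replicate 2; their part in the ratios was not tested. In bulk RNA, fewer cells that express a gene and less RNA per cell cannot be told apart.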

How the data were processed

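Polyadenylated RNA of 2 libraries was analysed. Reads were quantified on mm10 with GENCODE M21, per the labels and the submitters' processing notes, and the aligner and counter stay unnamed there. The authors deposited expected counts and TPM per gene and transcript from a transcriptome alignment, and estimated counts and TPM per transcript from the FASTQ files. Percent shares per transcript that the authors deposited were not used, and shares were computed from counts and TPM. Expected counts were rounded to whole numbers. All 55536 gene entries matched the annotation, and entries that name no gene (0.0526% and 0.0667% of counts) stayed out. Counts were scaled with TMM (edgeR 4.0.16, R 4.3.3), 0.5 was added before the log2 ratio, and intervals are Clopper-Pearson at 95%. No test was made: 1 group. The libraries were not a repeated deposit (chi-square 95.0 per degree of freedom over 13937 genes). Alternatives were DESeq2 1.42.0 size factors, total counts, the FASTQ-derived table, other minima and added counts, each library alone, and, chosen after seeing the data, coding transcripts only and transcripts of at least 500 nt. Members, marker and partner lists and motifs were chosen with earlier results of these data known. Named genes were all Ms4a genes, Tmem176a, Tmem176b and 7 partners; BE692007 and CT010467.1 were named after their values were seen. Coding bases were aligned globally and promoter windows locally with Biopython 1.88.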

Additional observations from a re-analysis of the deposited data

How the results depend on the processing

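The count of 7 members at 1 TPM or more held with the FASTQ-derived table, a minimum of 0.5 TPM and each library alone, and was 6 with a minimum of 5 TPM or coding transcripts only, Ms4a4b being lost. The share of Ms4a4c in the family's TPM was 37.6%, but 31.3% in the FASTQ-derived table, 19.2% of expected counts and 13.6% without transcripts under 500 nt. Its place as the leading member therefore depends on Ms4a4c-203. The 2-fold difference of Ms4a4a held under every scaling, table and added count tried, with log2 ratios between -1.19 and -1.17. Without a minimum of counts 2 members were at least 2-fold apart, Ms4a8a being added. On deposited TPM, Ms4a4b was at -1.09 in place of -0.37. The median ratio lay between 0.17 and 0.20 with TMM, DESeq2 or total-count scaling and without a minimum of counts. It was not computed in the FASTQ-derived table or on deposited TPM. On deposited TPM Ms4a6b stood at 0.03, with Ms4a4a, Ms4a4b and Ms4a7 below it and Ms4a4c, Ms4a6c and Ms4a6d above it. The median therefore depends on the measure. Depth limits Ms4a8a, Ms4a4b and the genes at 0 counts. With 1 group, no paired analysis was possible because there are no groups to pair.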

Other observations

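Inside the cluster, between Ms4a18 and Ms4a8a, lies AW112010 (chromosome 19, 11047612 to 11055808, minus strand), annotated as lincRNA and known as a transcript induced by bacterial products in macrophages. It stood at 987 TPM in replicate 1 and 1641 TPM in replicate 2, at the level of the leading Ms4a genes, with a log2 ratio of 0.72 (exact 95% interval 0.69 to 0.75, counting error only). Its neighbour Ms4a8a had 2 and 8 counts. Gm8369, a protein-coding gene between Ms4a6c and Ms4a6b, was at 3.75 and 3.46 TPM. Both genes were chosen after their values were seen.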
